A study of Mus musculus with 15 samples.

Results

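The comparison described here is that of mouse lymph node lymphatic endothelial cells (LECs) kept for 72 h with 10 ng/mL VEGF-C and the same kind of cells kept for 72 h without added VEGF-C. It covers 10 of the 15 RNA sequencing libraries of the series, 5 unstimulated and 5 with 10 ng/mL, chosen by the labelled dose, and all genes of the deposited table. The other 5 libraries, from cells given 100 ng/mL, entered the shared estimate of the spread and are set beside the lower dose where the doses are compared. All cells were Pdpn+ CD31+ CD45- LECs from C57Bl/6 females, derived from pooled lymph nodes of the neck, armpit, foreleg, groin and knee (cervical, axillary, brachial, inguinal and popliteal). They were cultured in MEMα with 10% fetal bovine serum, which all groups shared, and the stimulus was recombinant murine VEGF-C purified from HEK-293E cells, a human embryonic kidney line used to produce proteins. The labels letter the libraries of each group A to E but do not say that they came from separate cultures, so a p-value here reflects spread among libraries that may be technical.

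VEGF-C is the main growth factor of lymphatic vessels. It is made as a precursor that the protease ADAMTS3, held by the matrix protein CCBE1, cleaves into the form that binds the receptor tyrosine kinase VEGFR-3, encoded by Flt4, and more weakly VEGFR-2, encoded by Kdr, with neuropilin-2 as a co-receptor. In LECs this signal drives survival, proliferation, sprouting and migration, and in lymph nodes the same cells line the sinuses, take up antigen and guide leukocytes.

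No gene passed the test at 10 ng/mL. Of 17650 genes tested with edgeR's quasi-likelihood test, 0 (0.0%) had a Benjamini-Hochberg adjusted p under 0.05, and the smallest adjusted p was 0.970. The same fit called 7571 genes (42.9%) for 100 ng/mL against the same unstimulated libraries and 7158 genes (40.6%) for 100 against 10 ng/mL. An unadjusted p under 0.05 was reached by 844 genes (4.78%), of which 551 (3.12%) were higher and 293 (1.66%) lower at 10 ng/mL. That number depended on single libraries: it was 1640 without 10 ng/mL library D, 515 without 10 ng/mL A, 539 without 10 ng/mL B and 560 without unstimulated E, and 0 genes were called in each of the 10 fits that left out a library. These fits took their spread from the 100 ng/mL libraries as well. A fit of only the 10 libraries compared also called 0 genes, with 1160 at an unadjusted p under 0.05. Because RNA was measured in bulk, fewer cells of a type and less RNA per cell cannot be told apart in any of these values.

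The sizes of the differences were small and could be bounded. The median log2 fold change over all tested genes was -0.0027, 95% of genes lay between -0.40 and 0.35, and the median size regardless of sign was 1.06-fold. The median 95% interval reached 0.23 log2 units to either side of its estimate. A pair of one-sided tests against a margin (an equivalence test, Benjamini-Hochberg adjusted p under 0.05) placed 16801 genes (95.2%) within 2-fold of their unstimulated level and 14246 (80.7%) within 1.5-fold. Only 27 genes had an estimate of 2-fold or more, 21 higher and 6 lower, and 17 of them had a mean under 1 CPM (counts scaled to library size).

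The bound was tighter for abundant transcripts. Among 2374 genes with a mean of at least 100 CPM, 99.0% were within 2-fold and 93.8% within 1.5-fold. Among 2786 genes under 1 CPM the shares were 83.8% and 44.1%. Abundance also went with direction: of the genes at 100 CPM or more, 62.6% had a positive log2 fold change, and 171 had an unadjusted p under 0.05 on the higher side against 27 on the lower side. Under 1 CPM, 43.6% were positive, with 44 higher and 43 lower. The median log2 fold change was 0.030 at 100 CPM or more and -0.034 under 1 CPM. The sign of values this small can depend on the scaling. With library size alone the median of the Notch gene list went from 0.020 to -0.013. Shares by abundance were not computed with that scaling. The plot of fold change against abundance shows the widening of the spread toward rare transcripts.

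**Figure D1:**
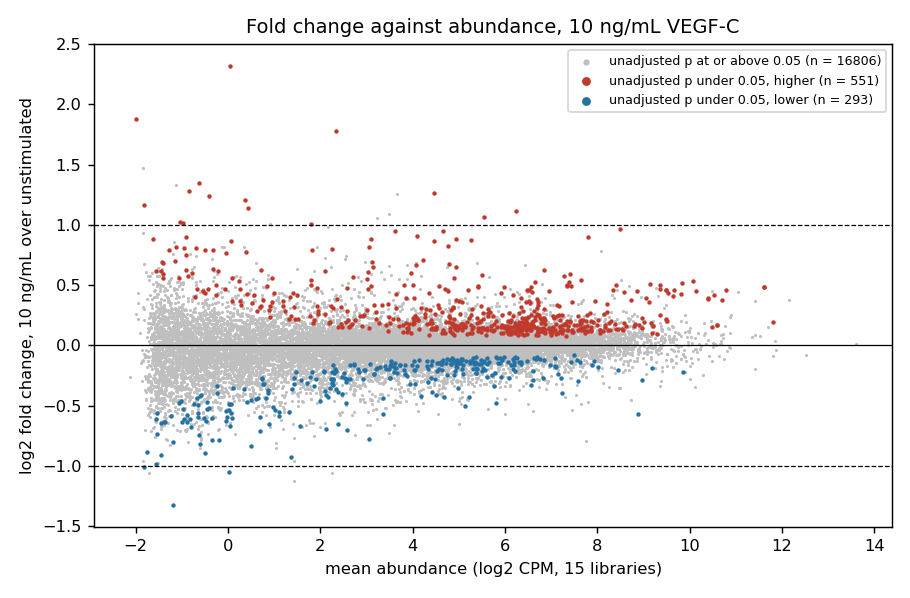
Each point is 1 of the 17650 tested genes, placed by its mean abundance (log2 CPM) and its log2 fold change at 10 ng/mL over unstimulated. The 551 red and 293 blue genes had an unadjusted p under 0.05, and dashed lines mark 2-fold; the spread narrows as abundance grows, and none of the genes passed the adjusted threshold.

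The libraries were deep, with 32097280 to 37132309 counts assigned to genes in the unstimulated group and 33247069 to 38590841 at 10 ng/mL. Unstimulated library E and 10 ng/mL library D stood apart from the other 8 on the first principal component of the 10 libraries (35.9% of the variance), with scores of 45.1 and 33.5 against -19.1 to 4.84. Without both, 0 genes were called and 850 had an unadjusted p under 0.05. Checked against its markers, the labelled cell type showed pan-endothelial and several lymphatic genes: Cdh5, the endothelial cadherin, measured 2160.5 ± 87.6 CPM unstimulated and 2273 ± 105 CPM at 10 ng/mL, and Prox1, the transcription factor that sets lymphatic identity, 242 ± 106 and 278 ± 95.3 CPM (SD, n = 5). Other lymphatic markers were at or near 0. Ccl21a, the lymphatic chemokine for dendritic cells and T cells, had 1 count in all 5 unstimulated libraries together and 0 at 10 ng/mL, and Mmrn1, a lymphatic matrix protein gene, had 2 and 1, so neither was tested. Ptprc, which encodes the leukocyte marker CD45, was at 4.46 ± 1.90 and 4.11 ± 1.54 CPM.

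The receptors and co-receptors of VEGF-C were followed first. Flt4 measured 706, 685, 628, 559 and 495 CPM in unstimulated libraries A to E and 739.7, 688, 676, 705 and 703 CPM at 10 ng/mL. The groups overlapped, the 10 ng/mL values being the more tightly grouped, and the log2 fold change was 0.19 (95% interval -0.06 to 0.44, unadjusted p = 0.120), within 1.5-fold by the equivalence test (adjusted p = 0.0035). Kdr measured 319, 381, 353, 227 and 267 CPM against 394, 429, 354, 444 and 365 CPM. Every 10 ng/mL library but C and E was above the highest unstimulated library. Its log2 fold change of 0.36 (0.07 to 0.65) had an unadjusted p of 0.0172 and was within 2-fold but not shown to be within 1.5-fold. In the fit of all 15 libraries this was the only p under 0.05 among the 28 receptor, ligand and marker genes tested. Of all genes 4.78% reached that level. Flt1, a receptor for other VEGF family members, was at 231 ± 42.1 and 218 ± 44.0 CPM (-0.08, interval -0.42 to 0.25).

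Nrp2, the neuropilin that binds VEGF-C, measured 465, 459.8, 475, 441 and 395 CPM unstimulated and 498, 511, 562, 511 and 486 CPM at 10 ng/mL. It was the only tested gene of these 28 whose groups did not overlap, against 1.31% of all tested genes, and its log2 fold change of 0.20 had an interval of -0.15 to 0.55 (unadjusted p = 0.237). Nrp1, the other neuropilin, was at 118 ± 26.4 and 107 ± 28.2 CPM, and Itga9, an integrin subunit that takes part in VEGF-C signalling, at 16.1 ± 2.13 and 17.4 ± 3.02 CPM. Per gene length, Flt4 had 40.1 ± 5.70 and 44.8 ± 1.65 RPKM (the authors' values scaled to gene length and library total), Kdr 18.4 ± 3.68 and 23.1 ± 2.44 RPKM and Nrp2 20.3 ± 1.30 and 22.8 ± 1.26 RPKM, so Flt4 was the most abundant of the 3 in both groups.

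The ligands and the proteins that process VEGF-C had intervals that all included 0. Vegfc itself measured 4.39 ± 0.919 CPM unstimulated and 4.92 ± 1.37 CPM at 10 ng/mL (0.16, interval -0.23 to 0.56). Vegfb and Pgf, ligands of VEGFR-1, were within 1.5-fold at 0.02 and -0.07. Vegfa, the ligand of VEGFR-2, varied widely between libraries, from 15.9 to 46.3 CPM unstimulated and from 13.6 to 42.9 CPM at 10 ng/mL, and its interval ran from -0.94 to 0.55. Figf, which encodes VEGF-D, was at -0.19 (-0.76 to 0.39). Adamts3 was at 0.339 ± 0.0558 and 0.304 ± 0.140 CPM and Ccbe1 at 1.74 ± 1.42 and 1.56 ± 0.799 CPM, and for Ccbe1 a 2-fold difference was inside the interval of -1.40 to 1.06.

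Among transcription factors of lymphatic and endothelial identity, Sox18, which acts upstream of Prox1, measured 201, 227, 240.2, 200.002 and 177 CPM unstimulated and 268, 282, 271, 211 and 209.9 CPM at 10 ng/mL. The ranges overlapped, and the log2 fold change was 0.25 (interval -0.0024 to 0.50, unadjusted p = 0.0521). Prox1 measured 318, 323, 314, 155 and 102 CPM against 349, 329, 193, 158 and 361 CPM. Libraries D and E were low in the unstimulated group and C and D at 10 ng/mL, and the interval of its log2 fold change ran from -0.64 to 1.04. Nr2f2, the venous factor needed to start lymphatic fate, was at 0.07, Foxc2 of the lymphatic valves at -0.14 and Gata2 at -0.18, and all 3 were within 1.5-fold.

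Surface and sinus markers varied more. Lyve1, the hyaluronan receptor of lymphatic capillaries, had its highest value in the library that stood apart in each group, 185 CPM in unstimulated E and 272 CPM in 10 ng/mL D, and was not shown to be within 2-fold (0.46, interval -0.29 to 1.21). Pdpn, the podoplanin used in the sort, was at 102 ± 46.3 and 92.4 ± 38.4 CPM. Stab1, a scavenger receptor of sinus endothelium, was within 1.5-fold at 0.03. Stab2, its relative and a hyaluronan receptor, measured 64.1, 64.8, 77.4, 67.3 and 11.7 CPM unstimulated and 129.9, 158, 176, 37.3 and 116 CPM at 10 ng/mL. Leaving aside unstimulated E and 10 ng/mL D, the 4 libraries at 10 ng/mL lay above the 4 unstimulated ones, and the log2 fold change over all 10 was 1.11 ± 0.46 (SE, unadjusted p = 0.0310). Ackr4, a scavenging chemokine receptor of lymph node LECs, was at 3.59 ± 2.86 and 1.98 ± 1.12 CPM with an interval of -1.88 to 0.18. By the equivalence test 24 of the 28 tested genes of this panel were within 2-fold and 16 within 1.5-fold, where 95.2% and 80.7% of all tested genes were. The plot of intervals shows that the widest was that of Reln, a secreted lymphatic glycoprotein gene under 1 CPM.

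**Figure D2:**
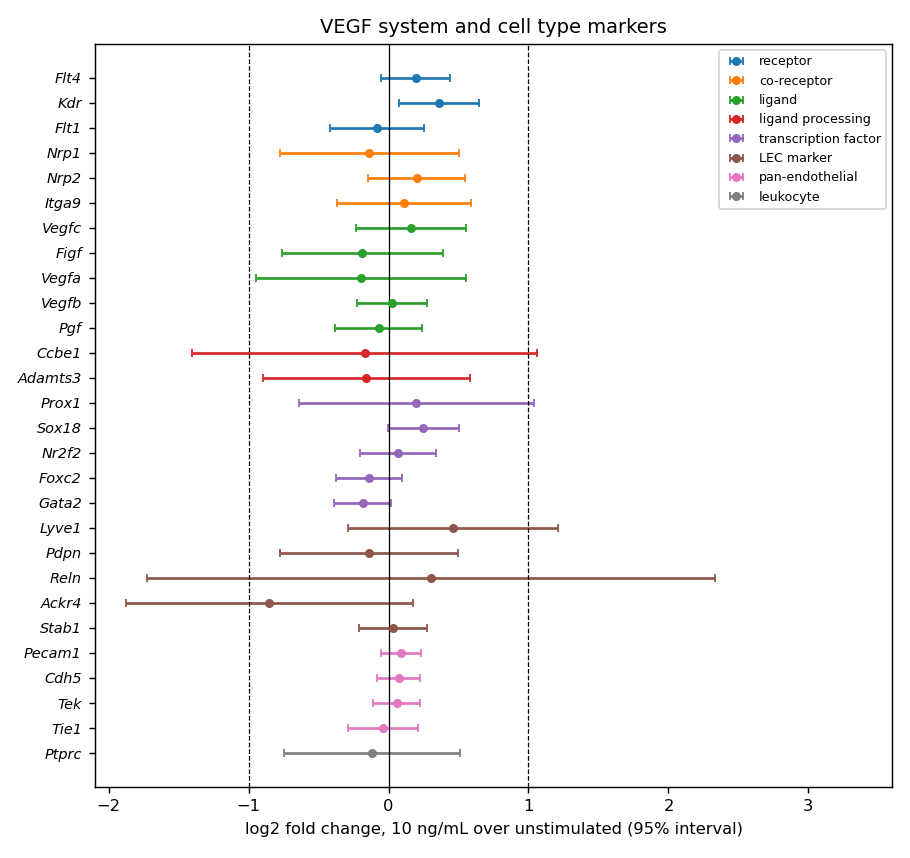
Log2 fold change at 10 ng/mL over unstimulated with its 95% interval for 28 receptor, ligand, transcription factor and marker genes, coloured by role, with dashed lines at 2-fold. In this fit of all 15 libraries only Kdr of these genes had an interval that excluded 0. The intervals of Ccbe1, Prox1, Lyve1, Reln and Ackr4 cross a dashed line.

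The genes with the smallest unadjusted p were named next, 10 higher and 10 lower, out of those whose mean log2 CPM was 1 or more. Since they were chosen by that p, their values are a description. She, an SH2-domain adaptor gene on chromosome 3 (89831370 to 89858834, plus strand, GRCm38), measured 37.9, 46.2, 47.4, 42.3 and 35.2 CPM unstimulated and 61.6, 63.5, 76.2, 69.8 and 51.8 CPM at 10 ng/mL. All 5 libraries at 10 ng/mL were above all 5 unstimulated ones. The log2 fold change was 0.63 ± 0.12 (interval 0.36 to 0.90, unadjusted p = 0.000161). Myo7a, an unconventional myosin gene, measured 68.5, 66.5, 70.8, 56.6 and 58.4 CPM against 97.6, 98.7, 100.48, 99.2 and 88.3 CPM, again without overlap (0.59 ± 0.12). Ssh2, a slingshot phosphatase that activates cofilin, was at 73.2 ± 7.67 and 91.0 ± 3.13 CPM without overlap (0.31 ± 0.07), and Plekhg1, a guanine nucleotide exchange factor gene, at 38.8 ± 4.44 and 51.9 ± 3.39 CPM without overlap (0.42 ± 0.10).

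Tmem26, a transmembrane protein gene, had the largest estimate of the 10 higher genes, at 1.93, 2.51, 2.01, 1.73 and 2.11 CPM unstimulated and 3.29, 4.50, 5.91, 7.30 and 3.68 CPM at 10 ng/mL (1.26 ± 0.30). Every 10 ng/mL library exceeded every unstimulated one, and the 10 ng/mL values spread over more than 2-fold. Adgrl4, an adhesion G protein-coupled receptor of endothelium, measured 94.9, 108, 97.3, 147 and 65.3 CPM against 199, 174, 265, 145 and 173 CPM. Only the highest unstimulated library, D, and the lowest 10 ng/mL library, D, overlapped (0.90 ± 0.22). Dock4, a Rac exchange factor, was at 235 ± 26.9 and 298 ± 22.5 CPM, Rfk, the riboflavin kinase, at 92.7 ± 9.14 and 121 ± 13.6 CPM, Secisbp2l at 269 ± 23.9 and 321 ± 18.3 CPM and Aak1, a kinase of clathrin adaptors, at 20.5 ± 1.95 and 24.5 ± 1.32 CPM.

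The sequences just upstream of She and Adgrl4 are shown. She had the smallest unadjusted p of the 20 leading genes, and Adgrl4 is an endothelial receptor gene among the 10 higher ones. The pair was picked after the values were seen. Each run is the 250 bases before the annotated start, 5′ to 3′ on the plus strand, from RefSeq on GRCm38.p6: chr3:89831120-89831369 for She and chr3:151437632-151437881 for Adgrl4. Capitals mark a match on either strand to the ETS motif CGGAA or the SOX motif AACAAT. Shorter GGAA runs, which both windows also hold, are not marked. CGGAA and AACAAT are short motifs of endothelial transcription factor families, and no matches overlapped.
She: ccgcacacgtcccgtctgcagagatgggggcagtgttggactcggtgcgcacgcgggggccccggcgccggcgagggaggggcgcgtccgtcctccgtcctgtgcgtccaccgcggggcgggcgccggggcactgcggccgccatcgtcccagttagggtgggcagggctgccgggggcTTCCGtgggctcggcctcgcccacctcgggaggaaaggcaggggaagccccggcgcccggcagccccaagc
Adgrl4: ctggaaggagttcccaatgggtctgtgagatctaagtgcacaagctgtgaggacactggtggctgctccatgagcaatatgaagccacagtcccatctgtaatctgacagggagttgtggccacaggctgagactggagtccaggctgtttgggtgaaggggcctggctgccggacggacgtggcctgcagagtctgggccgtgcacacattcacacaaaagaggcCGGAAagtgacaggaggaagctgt
She and Adgrl4 each held 1 match to CGGAA, and AACAAT was in neither window. Of 32851 upstream windows of 250 bases in the table, 25.2% held CGGAA and 9.42% held AACAAT.

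On the lower side, Hes1, a transcriptional repressor and target of Notch on chromosome 16 (30064384 to 30067796, plus strand, GRCm38), measured 27.3, 29.2, 28.4, 32.7 and 28.6 CPM unstimulated and 24, 20.2, 19.6, 20.9 and 23.9 CPM at 10 ng/mL. All 5 libraries at 10 ng/mL were below all 5 unstimulated ones. The log2 fold change was -0.43 ± 0.09 (interval -0.61 to -0.24, unadjusted p = 0.000205). Ninl, a centrosomal protein gene, measured 61.9, 60.9, 61.6, 58.5 and 62.4 CPM against 55.1, 54.8, 53.8, 49.7 and 51.8 CPM without overlap (-0.20 ± 0.05), though it overlaps Nanp in the annotation and whether strand was used in counting is unknown. Efnb2, the ephrin ligand of arterial endothelium and lymphatic valves, measured 238, 244, 237, 289.7 and 257 CPM against 204, 189.9, 220.4, 198 and 217 CPM. Its groups did not overlap either (-0.30 ± 0.09).

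Tead3, a DNA-binding partner of YAP and TAZ, was at 11.4 ± 0.605 and 9.70 ± 0.620 CPM (-0.23 ± 0.07), and Bcdin3d, an RNA methyltransferase gene, at 3.50 ± 0.376 and 2.82 ± 0.305 CPM (-0.31 ± 0.09), both without overlap. Msrb1, Mfge8, Fis1 and Fam110b had log2 fold changes between -0.38 and -0.14, with overlap. Adam33, a metalloprotease gene, had the largest negative estimate, -0.93 ± 0.28, with an overlap through 10 ng/mL library C at 4.18 CPM. Of the 20 leading genes, 5 on each side did not overlap between groups, against 0.878% of all tested genes on the higher side and 0.436% on the lower, and this is set by how they were chosen. By the equivalence test 17 of the 20 were within 2-fold, where 95.2% of all tested genes were. The dot plots show the per-library values of 10 of them.

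**Figure D3:**
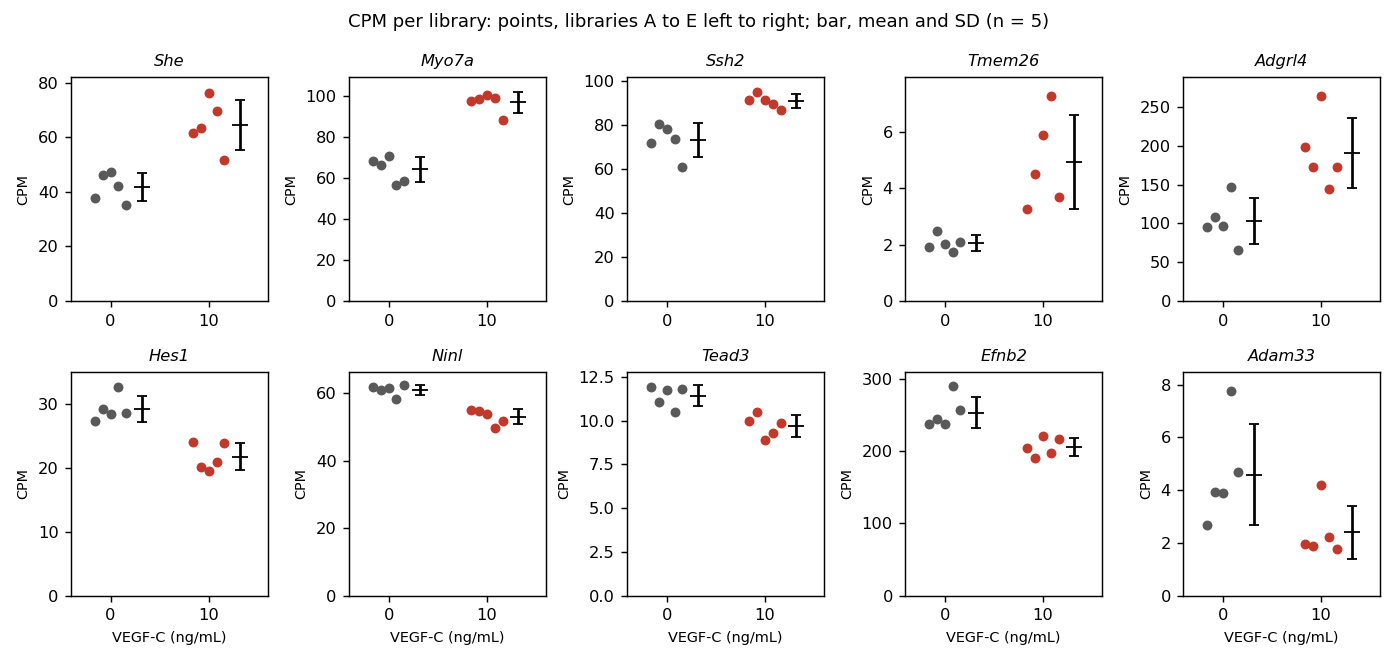
CPM in each library for 5 of the 10 higher genes (top) and 5 of the 10 lower genes (bottom) with the smallest unadjusted p; points are libraries A to E from left to right, and the bars give the mean and SD (n = 5) on axes that start at 0. The groups are separate for She, Myo7a, Ssh2, Tmem26, Hes1, Ninl, Tead3 and Efnb2, and overlap for Adgrl4 and Adam33.

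Other models of the spread called a few genes. DESeq2's Wald test gave an adjusted p under 0.05 to 8 genes, all higher at 10 ng/mL: She, Myo7a, Dock4, Secisbp2l, Adgrl4, Rfk, Ssh2 and the processed pseudogene Gm4076, with adjusted p between 0.00492 for She and 0.0325 for Ssh2. A fit with 3 surrogate variables, which are factors estimated from the data to absorb variation between libraries, called 28 genes, 24 higher and 4 lower, with adjusted p from 0.00141. That fit gave 2460 genes an unadjusted p under 0.05. All 28 had the same sign without the surrogate variables, and 23 had an unadjusted p under 0.05 there, where 4.78% of all tested genes did. Both fits used the same libraries and the 28 were chosen by one of them, so these counts are a description and not a test. Adgrl4 and Dock4 were in both sets.

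Several genes called with surrogate variables are known from endothelium, and those named in this paragraph other than Stab2 were picked after their values were seen. Iqgap2, a scaffold protein of the cytoskeleton, measured 14, 12.7, 14.2, 12.2 and 10.15 CPM unstimulated and 24.3, 25.1, 21.9, 17.5 and 26.6 CPM at 10 ng/mL, without overlap (0.73 ± 0.07 with surrogate variables, 0.87 without). Lepr, the leptin receptor, was at 14.6 ± 3.33 and 23.9 ± 4.01 CPM, and Stab2 was called at 0.89 ± 0.11. Rasip1, a Rap1 and Ras effector needed for vessel lumens, was at 70.5 ± 17.9 and 105 ± 16 CPM and Pde2a, a cyclic nucleotide phosphodiesterase gene, at 333 ± 86.5 and 476 ± 56.5 CPM. In each of these 5 genes unstimulated library E was the lowest of its group and 10 ng/mL library D the lowest of the other. The 4 lower genes were Adam33, Fam110b, Stxbp6 and Gadd45g. The higher genes also held the voltage-gated sodium channel genes Scn1a, Scn2a1, Scn3a, Scn8a and Scn9a. Over the 10 libraries Scn3a varied by 47.6% (coefficient of variation). The ratios of Scn1a, Scn2a1, Scn9a and Scn8a to it varied by 9.48, 9.45, 9.24 and 37.2%. Whether reads were shared between these genes was not tested.

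Gene lists were described by their counts beside those of all tested genes. The list with the highest median held markers of RNA quality and handling, where 13 of 24 genes were higher at an unadjusted p under 0.05 and 0 lower, against 3.12% and 1.66% of all tested genes, with a median log2 fold change of 0.36. All 13 were among its 15 mitochondrially encoded genes (median 0.45, from 0.17 to 0.54), and none of its 9 heat shock genes reached that level (median 0.0047). Mitochondrial genes took 1.01, 1.35, 1.30, 1.27 and 0.98% of counts in unstimulated libraries and 1.74, 1.33, 1.42, 1.69 and 1.6% at 10 ng/mL. The 2 groups met only at unstimulated B and 10 ng/mL B. The subunit gene mt-Nd1 was at 1379 ± 223 and 1897 ± 230.1 CPM without overlap, and the ratio of the pseudogene Gm13340 to mt-Co1 varied by 0.057% (coefficient of variation over the 10 libraries), so how reads were divided between such copies is uncertain. The count of 13 was 11 to 14 when single libraries or the pair that stood apart were left out. At 100 ng/mL against unstimulated the median of this list was 0.45, with 14 of 24 genes called where 42.9% of all tested genes were. Whether the level of these genes reflects handling, and its part in the other differences, was not tested.

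Interferon-stimulated genes had a negative median of -0.15 at 10 ng/mL, with 0 of 43 higher and 5 lower at an unadjusted p under 0.05, among them Oasl1, Isg15, Mx2 and Usp18. Of all tested genes 1.66% were lower at that level. Oasl1, an antiviral oligoadenylate synthetase-like gene, was at 67.7 ± 6.84 and 53.6 ± 6.68 CPM. The number of lower genes moved with single libraries, from 0 without 10 ng/mL B to 12 without 10 ng/mL C, and it was 9 without unstimulated C, 1 without unstimulated A, unstimulated D or 10 ng/mL A, 3 without 10 ng/mL D and 2 without the pair that stood apart. It was 9 with library size alone, 10 in limma on log2(RPKM + 1), 9 on log2(RPKM + 0.1), 8 with surrogate variables and 3 with the replicate block. Over all tested genes, in either direction, 844 reached that level with all libraries, 704 without 10 ng/mL C and 1155 without unstimulated C. With library size alone 878 did, in limma on log2(RPKM + 1) 1047, and with surrogate variables 2460. In MHC class I presentation, the machinery that loads peptides for CD8 T cells, all 24 genes were within 1.5-fold (median -0.039), where 80.7% of all tested genes were.

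Proliferation lists had negative medians. In the G2 and M phase list 0 of 41 genes had a positive log2 fold change, where 49.1% of all tested genes did. The median was -0.26, and all 41 were within 2-fold, with 0 at an unadjusted p under 0.05. Of all tested genes 95.2% were within 2-fold and 80.7% within 1.5-fold. The mean of the list per library, relative to the unstimulated mean, ran from -0.35 to 0.51 unstimulated and -0.63 to 0.34 at 10 ng/mL. Its SD between libraries was 0.35, and the 41 signs are not separate observations. Kif2c, a mitotic kinesin gene, measured 14.7, 16, 13, 18.6 and 24.3 CPM unstimulated and 12.5, 9.46, 11.8, 21.0 and 11.2 CPM at 10 ng/mL, highest in the library that stood apart in each group. Without 10 ng/mL D, 33 of the 41 were lower at an unadjusted p under 0.05, without unstimulated C 6, without unstimulated A 1, and without both libraries that stood apart 20. With surrogate variables 32 of the 41 were lower at that level. In the fit of all 15 libraries without them, 1.66% of all tested genes were lower. In either direction, 844 of all tested genes reached that level in that fit. This all-gene count was 1640 without 10 ng/mL D, 1155 without unstimulated C and 728 without unstimulated A. It was 850 without the pair that stood apart and 2460 with surrogate variables. All 39 S phase genes were within 2-fold and 36 within 1.5-fold (median -0.11), and the number lower at an unadjusted p under 0.05, 0 in all 10 libraries, was 10 without 10 ng/mL D, 6 without unstimulated C, 1 without unstimulated A, 3 without the pair that stood apart and 6 with surrogate variables. Glycolysis had 0 of 20 genes above 0 (median -0.15) and all 20 within 2-fold. For Gapdh, at 4.22 ± 0.891 CPM unstimulated, for Eno1 and for the ribosomal protein gene Rpl38, at 3.97 ± 1.27 CPM, the low values in a table with 4.74 to 5.39% of counts on pseudogenes leave uncertain how reads were divided among copies.

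Cholesterol synthesis genes were closely bounded, with 25 of 26 within 1.5-fold, where 80.7% of all tested genes were, and a median of -0.0065. In that list Ebp, a sterol isomerase, was lower at 35.9 ± 1.23 and 32.4 ± 1.501 CPM (-0.15 ± 0.05, unadjusted p = 0.00733). Lymphatic identity genes had a median of 0.13, with 16 of 22 (72.7%) above 0 where 49.1% of all genes were. They were less closely bounded, with 17 within 2-fold and 11 within 1.5-fold, where 95.2% and 80.7% of all tested genes were. Over all tested genes, in either direction, 844 had an unadjusted p under 0.05, 704 without 10 ng/mL C and 2460 with surrogate variables. The leukocyte adhesion list had 3 of 27 genes higher at an unadjusted p under 0.05, where 3.12% of all tested genes were, and the count was 0 without 10 ng/mL C and 6 with surrogate variables. Among them Selp, the P-selectin that endothelium shows to rolling leukocytes, measured 554, 503, 614, 478 and 736 CPM unstimulated and 592, 778, 832, 949 and 639 CPM at 10 ng/mL, with overlap (0.39 ± 0.16), and Cd47, the ligand of SIRPα, 206 ± 13.8 and 235 ± 10.34 CPM without overlap (0.19 ± 0.07). The junction protein gene Tjp1, which encodes ZO-1, was at 692 ± 70.2 and 799 ± 26.0 CPM (0.21 ± 0.07), and Egr1, an immediate early gene downstream of ERK, at 193 ± 28.4 and 147 ± 14.1 CPM (-0.39 ± 0.12). The plot of list medians shows all 34 lists.

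**Figure D4:**
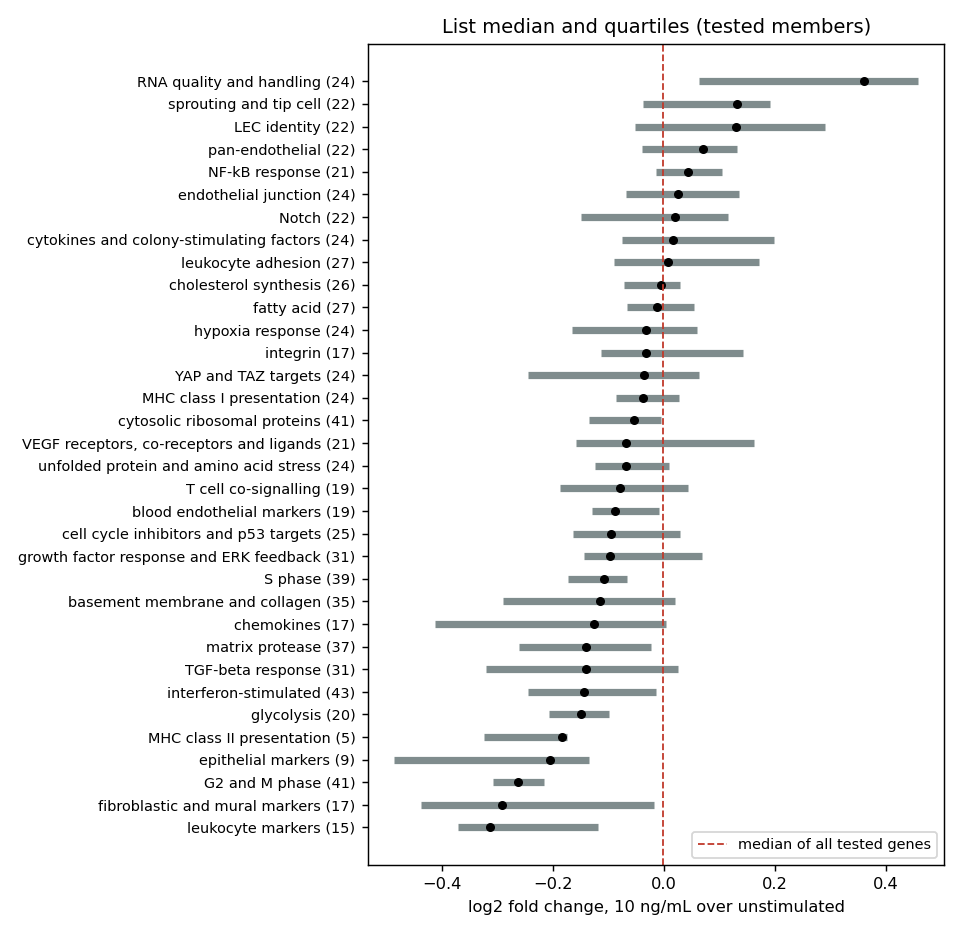
Median (point) and quartiles (bar) of the log2 fold change at 10 ng/mL over unstimulated for 34 gene lists, with the number of tested members in brackets and the median of all 17650 tested genes as a dashed line. The RNA quality list lies highest at 0.36 and, with all 10 libraries, the leukocyte marker list lowest at -0.31; without unstimulated C its median was -0.055 and that of the G2 and M phase list -0.36, and without 10 ng/mL D they were -0.26 and -0.46.

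The marker lists of other cell types had negative medians at 10 ng/mL. Of all tested genes 49.1% were above 0. The leukocyte list had a median of -0.31 (1 of 15 above 0), from -0.055 without unstimulated C to -0.54 without 10 ng/mL B, and a summed level of 97.2 to 207 CPM unstimulated and 94.7 to 184 CPM at 10 ng/mL. The only leukocyte marker with an unadjusted p under 0.05 was on the higher side: Cd14, a co-receptor for bacterial lipopolysaccharide, at 16.03 ± 3.53 and 22.1 ± 2.62 CPM (0.47 ± 0.19, unadjusted p = 0.0269). The fibroblastic and mural list had a median of -0.29 (3 of 17 above 0), from -0.093 without 10 ng/mL C or unstimulated C to -0.48 without 10 ng/mL B, and sums of 3215 to 4639.9 CPM and 2697 to 4409 CPM, so both sums overlapped between groups. Tagln, a contractile gene of that list, measured 382, 305, 349, 608 and 355 CPM against 213, 236, 254, 191 and 257 CPM without overlap (-0.80 ± 0.41), whereas Dcn, the fibroblast proteoglycan gene, was at 759 ± 259.6 and 1054 ± 371 CPM. The epithelial list had 0 of 9 genes above 0 (median -0.21), with sums of 88.8 to 141 CPM and 71.7 to 95 CPM. Blood endothelial markers had a median of -0.088, with 1 of 19 higher and 2 lower at an unadjusted p under 0.05, against 3.12% and 1.66% of all tested genes. The higher count was 0 without unstimulated B, unstimulated D, 10 ng/mL C or 10 ng/mL D, and the lower count 1 without unstimulated D or 10 ng/mL B. The part of these marker levels in the other differences was not tested.

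The 2 doses share the unstimulated libraries, so their values against unstimulated are given side by side, and the difference between doses is that of the direct test. Of the 10 genes with the largest rises and falls at 100 ng/mL, 2 had an unadjusted p under 0.05 at 10 ng/mL, namely Kcne3 and Kbtbd11, where 4.78% of all tested genes did. The 10 were chosen against the same unstimulated libraries, so this count is a description and not a test. The abundance limit was a mean over all 15 libraries, so a gene could pass it through its level at 100 ng/mL alone, as Kcne3 did. Kcne3 stayed under 0.05 in 4 of the 10 fits that left out a library and was at 0.122 without the pair that stood apart, and Kbtbd11 stayed under it in all 10. Abcc9 and Kcnj8, which encode the subunits of a potassium channel gated by ATP, rose at 100 ng/mL by 7.31 and 6.81 on the log2 scale. Their log2 fold changes at 10 ng/mL were 1.25 ± 0.63 and 1.06 ± 0.55. In the alternative fits these 10 ng/mL values ran from 0.03 to 1.52 for Abcc9 and from 0.08 to 1.39 for Kcnj8. Kcne3, an accessory potassium channel subunit and tip cell gene, measured 0.793, 0.656, 0.806, 0.433 and 0.433 CPM unstimulated and 1.20, 1.10, 0.874, 1.20 and 1.70 CPM at 10 ng/mL, without overlap (0.95 ± 0.42). At 100 ng/mL its level was 74.0 CPM and its log2 fold change 6.88. The log2 fold changes of Kbtbd11 were 1.06 ± 0.37 at 10 ng/mL and 6.18 at 100 ng/mL. In the alternative fits the 10 ng/mL values ran from 0.20 to 1.06 for Kcne3 and from 0.21 to 1.21 for Kbtbd11.

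Among the largest falls at 100 ng/mL, C1qtnf7 had a log2 fold change of 0.17 ± 0.40 with 10 ng/mL and -5.60 with 100 ng/mL, and Smoc2, a matricellular protein gene, had 0.0031 ± 0.40 and -5.09. Colec11, Lpar1 and Ptprq were at -0.52, -0.34 and -0.75 for 10 ng/mL, with intervals that included 0. Of the receptors, Flt4 and Kdr rose by 1.36 and 1.64 at 100 ng/mL, and 100 against 10 ng/mL gave 1.16 (adjusted p = 2.4e-06) and 1.28 (adjusted p = 3.8e-06). In the panel of 28 genes, 20 were called between the 2 doses and 0 between 10 ng/mL and unstimulated, where 40.6% and 0.0% of all tested genes were.

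For a few genes the estimates at the 2 doses did not follow the order of the doses. All 5 named next were taken for a small p at 10 ng/mL, so the difference of 100 from 10 ng/mL reuses the values that chose them and is given as a description, with no test. Hes1, lower at 10 ng/mL, rose at 100 ng/mL by 1.06 (adjusted p = 2.8e-07), and 100 against 10 ng/mL gave 1.49. Selp was higher at 10 ng/mL and fell at 100 ng/mL by 1.19 (adjusted p = 2.6e-05), and 100 against 10 ng/mL gave -1.58. For Stab2 the value at 100 ng/mL was -0.26, and the difference of 100 from 10 ng/mL was -1.38. Rfk and Secisbp2l, both higher at 10 ng/mL, were at 0.05 and -0.08 for 100 ng/mL, and the differences of 100 from 10 ng/mL were -0.34 for each. Since 10 ng/mL against unstimulated did not pass the adjusted test for any of these 5 genes, no change of direction between the doses is shown. The plot of both doses places these genes between the largest rises and falls.

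**Figure D5:**
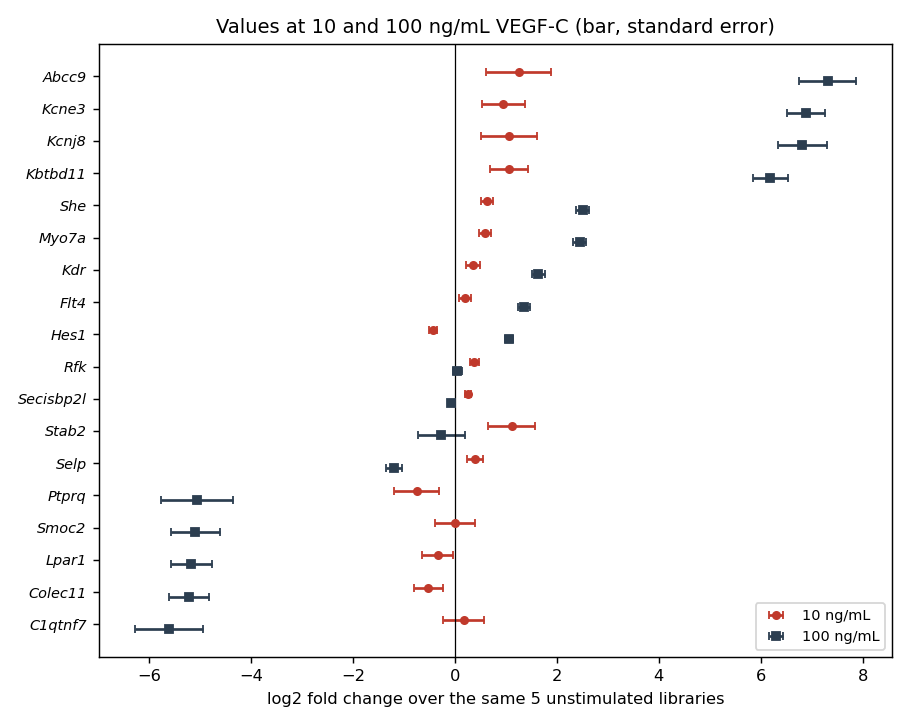
Log2 fold change over the same 5 unstimulated libraries at 10 ng/mL (red circles) and 100 ng/mL (dark squares) VEGF-C, with standard errors, for 18 genes. At 10 ng/mL all lie between -0.75 for Ptprq and 1.25 for Abcc9, whereas at 100 ng/mL they run from -5.60 for C1qtnf7 to 7.31 for Abcc9.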

How the data were processed

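Poly-A selected libraries (TruSeq Stranded mRNA, per the labels' protocols) gave a deposited table of 45706 genes with estimated counts and RPKM values per library. The submitters' processing notes name GRCm38 and mm10 as builds and FastQC, Bowtie2 and limma as tools. Their versions, the read counter, strand use and the handling of multi-mapped reads were not given in the sources used here. Like Ninl, the genes Ssh2, Itga9, Reln, Ackr4, Tagln, Kbtbd11, Lpar1, Pde2a, Tpi1 and Tap1 overlap another counted gene in the annotation. The same uncertainty therefore holds for their values. Of the deposited estimated counts, 64.3% were not whole, and they were rounded. The authors' RPKM values were used to compare levels between genes and in an alternative test.

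All 15 libraries were fitted together by group with edgeR 4.0.16 (filterByExpr, TMM scaling, quasi-likelihood test, Benjamini-Hochberg adjustment), which left 17650 genes. CPM are counts scaled to the TMM-adjusted library size, intervals are 95%, and the fold margins were 2 and 1.5. Alternatives were DESeq2 1.42.0, limma 3.58.1, sva 3.50.0, other scalings and filters, the 10 libraries alone, and left-out libraries. The scripts were tested on simulated data. The 34 gene lists, the members of the panel and the comparison itself were chosen with earlier results of these data known.

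Genes named were the 10 higher and 10 lower with the smallest unadjusted p at a mean log2 CPM of at least 1, the panel, the 2 members of each list with the smallest unadjusted p, the 5 largest rises and 5 largest falls at 100 ng/mL, and the genes DESeq2 called; predicted and pseudogene models were skipped except in the last. The text gives values for only some of these genes, and the others are not reported here singly. Dcn, Isg15, Mx2, Usp18, Gapdh, mt-Co1 and Gm13340 were named outside the rule, after their values were seen. Upstream sequences came from a RefSeq table, which Hes1 is not in.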

Additional observations from a re-analysis of the deposited data

Results flagged for a closer look

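In 24 of 234 gene-by-group sets of 5 libraries among the 117 named genes, the highest or lowest library lay apart from the other 4 by more than Dixon's 95% critical value of 0.71 for the share of the range taken by the gap; chance alone gives about 1 in 20. The library was unstimulated E or 10 ng/mL D in 6 cases each, and unstimulated C, unstimulated D, 10 ng/mL C or 10 ng/mL E in 3 each. The values are CPM.

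In unstimulated E the low values were Stab2 at 11.7, Nfkbie at 44.7 and Myof at 579.6, and the high values were Ccbe1 at 4.22, Tpi1 at 78.9 and Creld2 at 53.9. In 10 ng/mL D, 6 genes were high: Lyve1 at 272, Kif2c at 21.0, Cdkn2d at 13.6, Eno1 at 22.6, Tpi1 at 63.9 and Fam110b at 6.80. Tpi1 stood out in both of these libraries, which were also apart on the first principal component.

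Unstimulated D was high for Flt1 at 303, Tagln at 608 and Ptprq at 13.97, and 10 ng/mL C was high for Flt1 at 296, Ptprq at 6.86 and Adam33 at 4.18. Unstimulated C was high for Figf at 2.76 and low for Tap1 at 121 and Lgals9 at 449. In 10 ng/mL E, Myo7a at 88.3 and Plekhg1 at 46.0 were low and Ebp at 34.9 was high; the lowest 10 ng/mL values of Myo7a and Plekhg1 were still above every unstimulated library.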

How the results depend on the processing

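No gene was called under other scalings (DESeq2 size factors, library size alone), with no filter or at least 10 CPM in 5 libraries, in limma-voom, limma on log2(RPKM + 1) or log2(RPKM + 0.1), a robust fit, the 10 libraries alone (smallest adjusted p 0.0668) or any fit without a library. DESeq2's Wald test called 8 genes and surrogate variables 28, and the cause was not tested. Genes with an unadjusted p under 0.05 numbered 515 to 1640 with single libraries left out and 2460 with surrogate variables. Genes within 2-fold numbered 10218 with at least 10 CPM in 5 libraries, where fewer genes were tested. Of 2667 values of the 117 named genes, 13 were called, all by DESeq2 or with surrogate variables and none in the opposite direction, and 38 that were not called changed sign. Of 781 list medians, 5 moved by more than 1 SD between libraries. The median of MHC class II presentation could not be computed at 10 CPM, where no gene of it was left.

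The letters A to E did not pair the libraries: deviations from the group means correlated at -0.314 to 0.0567 between libraries of the same letter in the 2 groups, and 0 of 5 correlated best with their own letter. With the letter as a replicate block, 0 genes were called and 717 had an unadjusted p under 0.05. Each unstimulated library correlated best with a different 10 ng/mL library, always shifted by 1 letter: A with E at 0.487, B with A at 0.562, C with B at 0.655, D with C at 0.675 and E with D at 0.786. This is a hint from the data and not from the design, and every test, interval and equivalence count here treats the libraries as unpaired except the fit with the block.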
